A study of Caenorhabditis elegans with 2 samples.

Results

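The genes of the CDC-48 segregase and its cofactors were examined in a chromatin immunoprecipitation and sequencing (ChIP-seq) map of the homeobox protein CEH-82 in Caenorhabditis elegans. They are 10 of the 19973 annotated protein-coding genes on the 6 nuclear chromosomes. The set holds the paralogous ATPase genes cdc-48.1 and cdc-48.2 and the adaptor genes ufd-1, npl-4.1 and npl-4.2. It also holds the substrate-processing cofactor genes ufd-2 and ufd-3 and the UBX-domain genes ubxn-1, ubxn-2 and ubxn-3. The genes were named by function, but the set was selected on peak values of these same lists, with the strong peak at cdc-48.1 known beforehand, so their peaks are described here without a test. There was 1 group of 2 biological replicates, made from whole first-stage (L1) larvae of strain OP212, with males and females pooled and age given as unknown. This strain carries unc-119(ed3) on chromosome III and ddEx58, by its name an extrachromosomal array, from which CEH-82 is expressed as an eGFP fusion. Every value below therefore comes from tagged protein, and no untagged or wild-type list was analysed here.

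CDC-48, called p97 or VCP in mammals, is a hexameric AAA ATPase that uses ATP hydrolysis to pull ubiquitinated proteins out of membranes, chromatin and protein complexes, mostly on their way to the proteasome. A heterodimer of UFD-1 and NPL-4 recruits it to polyubiquitinated substrates, and UBX-domain proteins direct it to particular tasks. Substrate-processing cofactors such as UFD-2 and UFD-3 act on or bind the ubiquitin chains of what it holds. In C. elegans it serves degradation of proteins from the endoplasmic reticulum, disassembly of replication machinery in the embryo, and work in the germ line and muscle.

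The authors' peak lists on ce11, the assembly WBcel235, were used: a list for each replicate, a list called on both replicates pooled, and an optimal list that kept peaks reproducible by the irreproducible discovery rate. Signal is the authors' own value for each peak, it is on a separate scale in each list, and it is compared here within a list only. The optimal list held 3913 peaks with a median signal of 55.7, and these were the 3913 strongest of the 16974 pooled peaks. Replicate 1 had 24014 peaks and replicate 2 had 30000, and the strongest 3913 of each are called its top list. Read depth is unknown, since peak lists carry no counts. Larvae were taken whole, so binding in a few cells and weaker binding in many cannot be told apart. A gene's window ran from 2000 bp upstream of the gene to its 3′ end.

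The sequences within 100 bp of the summit are given first for the peaks that the results turn on, so that the word counts given further on can be read against the letters. All were read from the RefSeq genome of WBcel235, 5′ to 3′ on the strand of the gene. Capitals mark GAGAGA or its reverse complement TCTCTC, and GCGC, which was added to the search after the sequences had been seen. Next to the summit windows of cdc-48.1, ufd-2, ufd-3, ubxn-2 and ubxn-3 stand a window at cdc-48.2 at the same distance upstream as the cdc-48.1 summit, another at the strongest pooled cdc-48.2 summit, and the window at that same distance upstream of npl-4.1.
cdc-48.1, chrII:10563479-10563679, minus strand: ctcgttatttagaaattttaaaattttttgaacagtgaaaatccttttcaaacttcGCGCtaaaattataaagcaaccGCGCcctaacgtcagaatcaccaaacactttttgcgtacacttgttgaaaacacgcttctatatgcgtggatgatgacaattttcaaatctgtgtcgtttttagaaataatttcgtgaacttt
ufd-2, chrII:8062318-8062518, plus strand: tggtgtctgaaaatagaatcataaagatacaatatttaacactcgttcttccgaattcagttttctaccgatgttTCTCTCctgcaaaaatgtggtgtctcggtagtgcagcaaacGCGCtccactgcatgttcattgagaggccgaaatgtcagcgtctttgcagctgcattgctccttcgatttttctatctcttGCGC
ufd-3, chrII:9940536-9940736, plus strand: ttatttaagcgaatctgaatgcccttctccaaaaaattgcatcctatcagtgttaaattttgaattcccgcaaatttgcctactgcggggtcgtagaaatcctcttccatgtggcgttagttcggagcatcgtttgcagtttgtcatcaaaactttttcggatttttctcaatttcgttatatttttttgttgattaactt
ubxn-2, chrIV:2725879-2726079, minus strand: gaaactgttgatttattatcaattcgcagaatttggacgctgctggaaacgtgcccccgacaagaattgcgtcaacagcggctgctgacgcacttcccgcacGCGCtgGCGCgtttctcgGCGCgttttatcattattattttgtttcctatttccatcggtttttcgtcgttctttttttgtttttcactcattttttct
ubxn-3, chrII:221306-221506, minus strand: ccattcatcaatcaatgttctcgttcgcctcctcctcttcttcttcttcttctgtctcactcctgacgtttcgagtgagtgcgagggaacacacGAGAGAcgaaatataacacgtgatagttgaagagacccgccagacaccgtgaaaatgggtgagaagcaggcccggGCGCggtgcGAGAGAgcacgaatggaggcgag
cdc-48.2 at the matched distance, chrII:8138224-8138424, plus strand: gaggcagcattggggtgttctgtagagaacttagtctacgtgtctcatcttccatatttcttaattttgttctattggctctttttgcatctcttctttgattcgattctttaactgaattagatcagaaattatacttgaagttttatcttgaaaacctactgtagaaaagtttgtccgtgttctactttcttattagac
cdc-48.2 at its strongest pooled summit, chrII:8137329-8137529, plus strand: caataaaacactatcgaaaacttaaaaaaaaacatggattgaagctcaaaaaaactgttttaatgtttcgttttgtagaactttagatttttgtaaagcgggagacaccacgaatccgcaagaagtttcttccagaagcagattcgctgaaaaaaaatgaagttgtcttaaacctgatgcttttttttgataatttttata
npl-4.1 at the matched distance, chrII:5631079-5631279, plus strand: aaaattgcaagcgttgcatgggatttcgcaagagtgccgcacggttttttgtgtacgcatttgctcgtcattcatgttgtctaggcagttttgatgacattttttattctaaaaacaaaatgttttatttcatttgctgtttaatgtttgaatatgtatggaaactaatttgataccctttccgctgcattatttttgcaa

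Of the 10 genes, 6 had an optimal peak in the window: cdc-48.1, ufd-2, ufd-3, ubxn-1, ubxn-2 and ubxn-3. Over all protein-coding genes the share was 22.5%, or 4486 genes. The same 6 genes had a peak in the top list of replicate 1, against 22.4% of all genes, and in that of replicate 2, against 22.1%. Each of the 6 had exactly 1 optimal peak, and in every case the summit lay within 1000 bp upstream of the gene, a position that 59.6% of all genes with an optimal peak shared. In the longer pooled list cdc-48.2 was added, giving 7 of 10 members where 51.4% of all genes had a peak. The remaining 3 genes, ufd-1, npl-4.1 and npl-4.2, had no peak in any of the 4 lists, which was true of 18.4% of all genes. The members' windows had a median length of 5045 bp against 4027 bp over all genes, so a member offered somewhat more sequence in which a peak could fall.

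**Figure D1:**
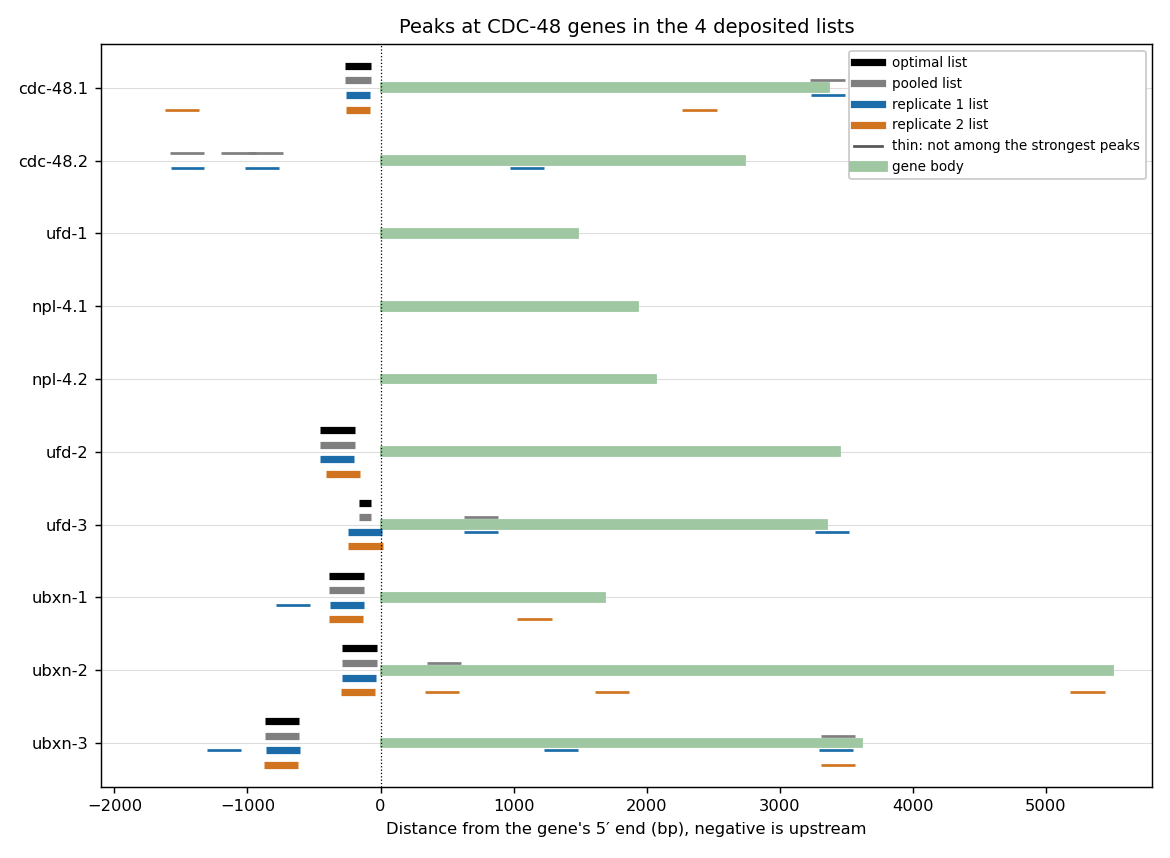
Peaks of the 4 deposited lists at the 10 genes, as distance from the annotated 5′ end of each gene in bp, with the gene body in green; thick bars are among the 3913 strongest peaks of their list and thin bars are not. All 6 genes with an optimal peak have the summit of that peak upstream of the gene in all 4 lists. At ufd-3 the replicate bars reach 9 and 15 bp past the 5′ end. The gene cdc-48.2 has thin bars only, and the rows of ufd-1, npl-4.1 and npl-4.2 are empty.

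The map of peaks at the 10 genes shows that the thick bars of the 4 lists stack above each other at 6 genes. Some stacking was built in, since the optimal list kept reproducible peaks: 3897 of its 3913 overlapped a peak in both replicates. The pooled thin bars inside cdc-48.1, ufd-3, ubxn-2 and ubxn-3 each recurred in a replicate. Only that of ubxn-3 recurred in both replicates. The median signal of the 6 optimal peaks was 108, and the median of the strongest peak over the 4486 genes with one was 63.7. Each of the 6 was above that median. All 6 lay at the ceiling of the authors' q-value, as did 83.6% of the optimal list, so signal and not significance separates them.

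The ATPase gene cdc-48.1 (WBGene00007352, chromosome II, 10560036 to 10563407, minus strand) had the strongest peak of the set. Its optimal peak spanned 10563480 to 10563675 and had a signal of 531, rank 4 of the 3913. In replicate 1 the signal was 300.1, rank 7 of 24014, and in replicate 2 it was 231, rank 2 of 30000. The peak was thus among the 10 strongest of the genome in each of the lists made from this experiment. Only 7 protein-coding genes had a stronger optimal peak in their window. The summit lay 172 bp upstream of the 5′ end in the optimal list, 172 bp in replicate 1 and 173 bp in replicate 2. The replicate summits were 1 bp apart, where the median gap was 17 bp over the 3897 optimal peaks that overlapped a peak in both replicates. The next gene upstream, C06A1.6, is on the same strand and ends 704 bp away, with its own 5′ end 1099 bp from the summit. Beyond it C06A1.7 starts on the opposite strand, 9 bp from a weak replicate 2 summit that lay 1493 bp upstream of cdc-48.1.

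Its paralog cdc-48.2 (WBGene00008053, chromosome II, 8138496 to 8141230, plus strand) encodes a closely similar enzyme that is known to act redundantly with CDC-48.1. The annotated proteins have 809 and 810 residues and are identical at 89.8% of 802 aligned positions. It had no optimal peak and no peak at all in replicate 2. In the pooled list its strongest peak had a signal of 17.8 and rank 5976, with a −log10 q-value of 1.21, and in replicate 1 the strongest had a signal of 13.9 and rank 4796. Both ranks fall below the 3913 strongest peaks. The pooled signal at cdc-48.1 was 29.7 times that at cdc-48.2, and in replicate 1 it was 21.6 times. No ratio exists for the optimal list or for replicate 2, where cdc-48.2 has no value.

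The weak peaks near cdc-48.2 were also placed differently. The pooled summits were 1067, 864 and 1453 bp upstream of the gene, and those of replicate 1 were 891 and 1450 bp upstream and 1099 bp inside it, in a coding exon. The divergent neighbour ctns-1, which encodes a cystinosin-like lysosomal transporter, starts 1577 bp from cdc-48.2. The 3 pooled summits were 511, 714 and 125 bp from the 5′ end of ctns-1, closer in each case than to cdc-48.2. No peak of any list lay in the 500 bp next to cdc-48.2, the stretch in which the cdc-48.1 summit falls at its own gene. The coding sequences of the paralogs are 78.6% identical, and no 36-bp word in the cdc-48.2 window occurs elsewhere in the genome.

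UFD-1 and NPL-4 form the substrate-recruiting heterodimer, and none of their 3 genes had a listed peak. The gene ufd-1 (WBGene00006733, chromosome IV, 12329408 to 12330890, minus strand) begins 85 bp after the end of F19B6.1 on the same strand. The nearest optimal peak upstream was 4636 bp from its 5′ end, inside an intron of F19B6.1 and 549 bp from that gene's own start, with a signal of 50.6 and rank 2202. The replicate signals of that peak were 29.5 at rank 2285 and 20.4 at rank 2154. Repeated 36-bp words made up 0.058% of the ufd-1 window, so almost all of it is unique in the genome. Beyond the 85 bp gap, the upstream part of this window lies inside F19B6.1 and does not reach the start of that gene.

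The genes npl-4.1 (WBGene00019120, chromosome II, 5631351 to 5633284, plus strand) and npl-4.2 (WBGene00019121, chromosome II, 5622889 to 5624959, plus strand) are near-copies whose 5′ ends are 8462 bp apart. Their proteins, each of 529 residues, are identical at 524 positions, and their coding sequences are 99.5% identical. The copying extends upstream: the printed npl-4.1 window matched the corresponding npl-4.2 window at 201 of 201 bases. At npl-4.1, 65.6% of the 36-bp words in the upstream 2000 bp and 85.6% of those in the gene occur more than once in the genome, and at npl-4.2 the values were 65.6% and 83.4%. The genome as a whole had 7.93%. Among the 497 protein-coding genes with at least 50% of the window repeated in this way, 1.61% had an optimal peak and 84.7% had no peak in any list. Among the other 19476 genes the shares were 23% and 16.7%. Most reads from the npl-4 copies would have more than 1 place to align at that word length, and neither the read length nor the treatment of such reads is given in the sources. At these genes a lack of binding and binding that left no uniquely placed reads cannot be told apart.

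**Figure D2:**
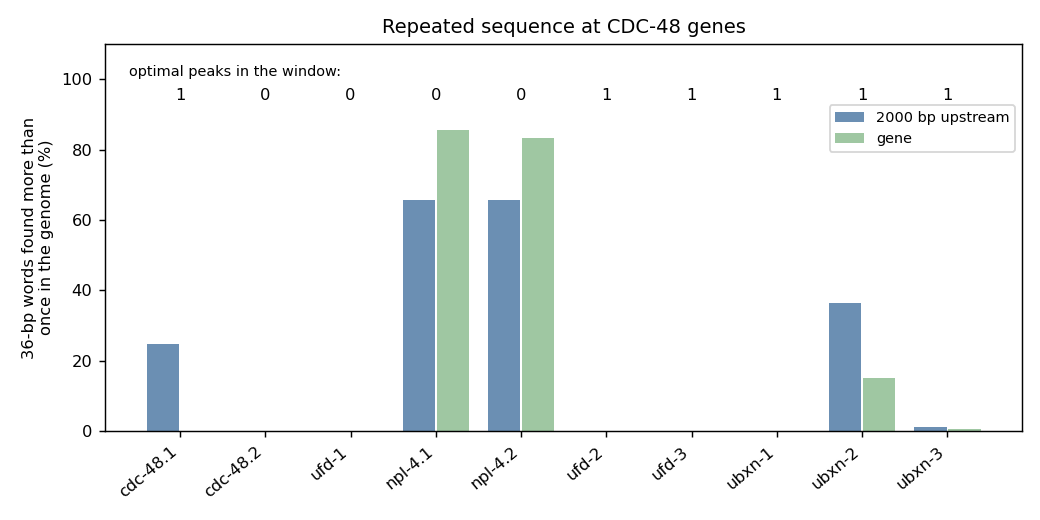
Share of 36-bp words that occur more than once in the genome, in percent, in the 2000 bp upstream of each gene (blue) and in the gene (green), with the number of optimal peaks in its window above each pair of bars. The npl-4.1 and npl-4.2 bars reach 65.6% upstream and over 80% in the gene, and ufd-1 and cdc-48.2, which also have no optimal peak, have almost none.

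The plot of repeated sequence separates the genes without an optimal peak into the npl-4 copies and the uniquely mappable ufd-1 and cdc-48.2. The windows of cdc-48.1 and ubxn-2 also held repeats, at 24.8% and 36.5% of their upstream words. Their optimal peaks held none, nor did those of the other 4 genes, as was the case for 91.7% of all optimal peaks.

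The gene ufd-2 (WBGene00006734, chromosome II, 8062741 to 8066193, plus strand) encodes an E4 enzyme that lengthens ubiquitin chains. Its optimal peak at 8062288 to 8062547 had a signal of 88.5, rank 952, with the summit 323 bp upstream. In replicate 1 the signal was 65.2 at rank 670 and in replicate 2 it was 28.3 at rank 1381. Its replicate summits were 41 bp apart, the widest gap among the 6 genes and wider than at most optimal peaks, of which 79.8% had a gap of at most 40 bp.

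The gene ufd-3 (WBGene00007333, chromosome II, 9940753 to 9944107, plus strand) encodes the relative of yeast Ufd3 and mammalian PLAA, a WD-repeat protein that binds ubiquitin and CDC-48. Its optimal peak at 9940593 to 9940685 had a signal of 128, rank 470, and the summit nearest to a gene start in the set, 117 bp upstream. The replicates gave signals of 82.8 at rank 424 and 44 at rank 647, with summits 4 bp apart. At 93 bp the peak was narrower than the median of 260 bp in its list. The same peak lay 968 bp from the 5′ end of the upstream gene C05C10.5, on the same strand, which ends 320 bp before ufd-3.

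UBXN proteins carry a UBX domain that docks on the ATPase. The gene ubxn-1 (WBGene00017733, chromosome I, 2434002 to 2435691, plus strand) encodes a protein that resembles human SAKS1. Its optimal peak, at 2433616 to 2433875, had a signal of 85.3 at rank 1043 with the summit 256 bp upstream, and 58.5 at rank 822 and 25.1 at rank 1654 in replicates 1 and 2. It lay between divergent genes, 131 bp from the 5′ end of tipn-1, which encodes a Timeless-interacting protein of the replication fork, so it was closer to the neighbour than to ubxn-1. The gene starts are 386 bp apart, and the lists cannot assign the peak to either gene.

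The p47-like gene ubxn-2 (WBGene00022381, chromosome IV, 2720313 to 2725819, minus strand) is related to mammalian p47, a CDC-48 adaptor for membrane fusion, and is known in C. elegans for a role in Aurora A control at centrosomes. Its optimal peak at 2725849 to 2726108 had a signal of 131, rank 444, and a summit 160 bp upstream. The replicate signals were 74.9 at rank 506 and 57.3 at rank 348, with summits 11 bp apart. The nearest gene upstream, Y94H6A.2, starts 4472 bp away, and no other protein-coding gene had a 5′ end within 1000 bp of this peak.

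The FAF1-like gene ubxn-3 (WBGene00018586, chromosome II, 217049 to 220667, minus strand) assists CDC-48 in unloading the replicative helicase from chromatin. Its peak at 221276 to 221535 was the weakest of the 6, with a signal of 77.4 at rank 1229, and the most distant, with the summit 739 bp upstream. Replicate 1 gave 38 at rank 1709 and replicate 2 gave 38.4 at rank 836, with summits 14 bp apart. Its annotated transcripts start at several places, and the nearest start to the summit was the one at 739 bp. An optimal peak with a signal of 213, rank 121, lay 213 bp beyond the downstream edge of its window, 159 bp from the 5′ end of F48A11.4, and is not counted.

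**Figure D3:**
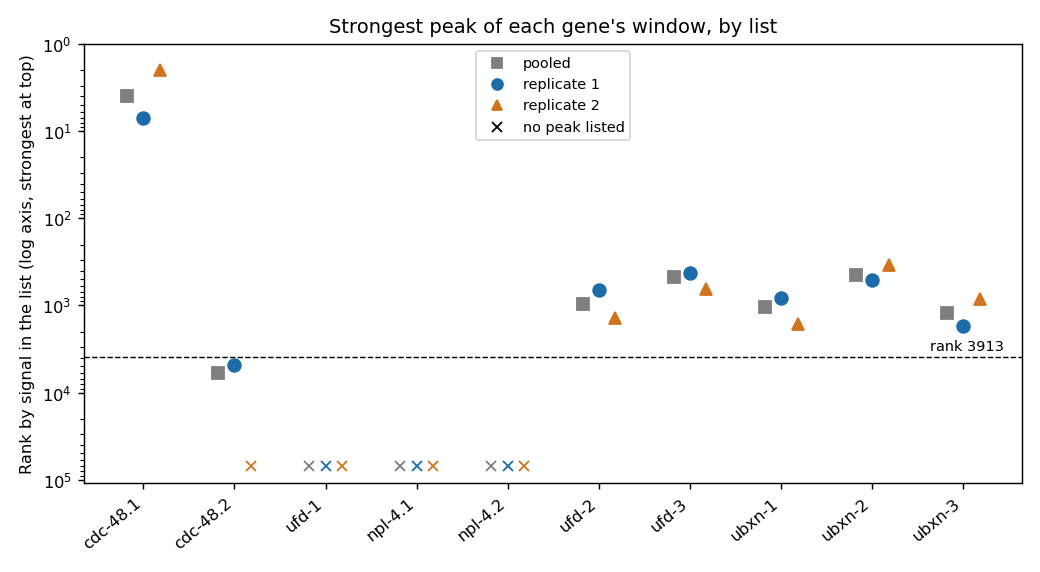
Rank by signal of the strongest peak in each gene's window, on a log axis with the strongest at the top, in the pooled list (squares), replicate 1 (circles) and replicate 2 (triangles); crosses mark lists without a peak, and the dashed line is rank 3913. The cdc-48.1 symbols lie between ranks 2 and 7, the other 5 genes with an optimal peak between ranks 348 and 1709, and both cdc-48.2 symbols below the dashed line.

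The plot of ranks shows that the distance between cdc-48.1 and the other members was larger than the spread between replicates. As the share of a replicate's peaks that were weaker, cdc-48.1 stood at 99.98% ± 0.016 (SD, n = 2) and ubxn-2 at 98.4% ± 0.67. The values were 98.04% ± 0.28 for ufd-3, 96.3% ± 1.3 for ufd-2, 95.5% ± 1.5 for ubxn-1 and 95.05% ± 3.1 for ubxn-3. The ranges of these 5 genes over the replicates overlapped in part, and their order was not the same in replicate 1 and replicate 2. In replicate 1 ufd-3 ranked above ubxn-2, and in replicate 2 below it, and ubxn-3 was below ufd-2 and ubxn-1 in replicate 1 and above them in replicate 2. Ranks in the 2 replicates differed by 1.45-fold at ubxn-2 and 3.5-fold at cdc-48.1, the latter being a step from rank 7 to rank 2.

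Weaker peaks inside the genes were not shared by all lists. The pooled list held 1 such peak each at cdc-48.1, ufd-3, ubxn-2 and ubxn-3, with signals of 11.7, 12.6, 10.4 and 15.8 against a median of 13.7 in that list. Those at ufd-3 and ubxn-2 were in coding exons, 756 and 476 bp from the 5′ end of the gene. The ubxn-2 peak also lay 51 bp upstream of another of that gene's 3 annotated starts, 527 bp inside the gene. Only ubxn-3 had its peak near the 3′ end in the pooled list and both replicates, with signals of 7.84 in replicate 1 and 5.29 in replicate 2. The pooled summit of that peak was 611 bp from the 5′ end of F48A11.4. It was 3435 bp from the 5′ end of ubxn-3 and 892 bp from the nearest of that gene's annotated starts. In replicate 2 a peak of signal 7.31, rank 6801, lay 1493 bp upstream of cdc-48.1 and 9 bp from the 5′ end of C06A1.7.

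None of the 7 words searched occurred in all 6 summit windows. Apart from these words and the G and C content given below, no comparison of the windows is described here. On both strands, GAGAGA occurred in 2 of the 6 summit windows, those of ufd-2 and ubxn-3, and in 47.5% of all 3913 optimal windows of 201 bp. In windows of the same length immediately upstream of all 19973 genes it occurred in 16.4%. GCGC occurred in 5 of 6, all but ufd-3, and in 60.6% of optimal and 20.4% of upstream windows. TAATTA, a core that many homeodomains bind, occurred in 0 of 6, and in 3.91% of optimal and 11.9% of upstream windows. CACGTG occurred at ubxn-3 and CAGCTG at ufd-2, words found in 5.37% and 5.65% of optimal windows and in 4.23% and 3.45% of upstream windows. TGATAA occurred at ubxn-2, against 6.64% of optimal and 22.8% of upstream windows, and TTGCGCAA at no member, against 0.843% and 0.335%.

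The strongest peak, that of cdc-48.1, thus held none of the 6 words searched other than GCGC, of which it had 2 sites. It was also the most AT-rich summit of the set, with 33.3% G and C, close to the median of 32.8% for upstream windows and below the 44.3% median of optimal windows. The other summits ranged from 36.3% at ufd-3 to 53.2% at ubxn-3. At cdc-48.2 the matched window had 33.8% G and C and the window at its strongest pooled summit 30.3%. Neither held GAGAGA or GCGC, and the pooled-summit window held 1 TGATAA. A word match is a description of the sequence and not a binding site.

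The genes whose peaks ranked most like cdc-48.1 were found by the sum of absolute log2 rank differences over the optimal list and both replicates, among 3184 other genes with a summit from 1000 bp upstream to 200 bp downstream of a 5′ end in all 3 lists. The nearest were K11H12.8 and rpl-15, which share a peak, at a sum of 2.22. They were followed by rpl-35 at 2.36, eelo-2 at 3.32, and Y17G9B.5 and rpl-20, tied at 3.54. The rpl genes encode proteins of the large ribosomal subunit. The ranks over optimal, replicate 1 and replicate 2 were 3, 4 and 4 for rpl-15 and 6, 8 and 6 for rpl-35, beside 4, 7 and 2 for cdc-48.1.

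Lists of further genes in the pathway were counted in the same way. They were taken from general knowledge, but with earlier results of these data known, so they are not an independent comparison. Of 9 CDC-48 relatives and adaptors, 4 had an optimal peak. The share over all protein-coding genes was 22.5%, for this list and for those that follow. These were dvc-1, which encodes the SPRTN-like protease for DNA-protein crosslinks, with a signal of 161 at rank 270, ubxn-6 with 68, the deubiquitinase gene atx-3 with 52.7, and otub-1 with 41.6. The peaks of ubxn-6, atx-3 and otub-1 lay 382, 52 and 472 bp from the starts of eif-1.A, F28F8.9 and C25D7.9, nearer in each case than to the listed gene. The third CDC-48 relative, cdc-48.3, had no optimal peak. Its protein has 724 residues and is 34.4% identical to CDC-48.1.

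Of 11 listed genes for degradation from the endoplasmic reticulum, edem-1, edem-2 and edem-3 were not matched by name in the annotation used, and 4 of the other 8 had an optimal peak. The ubiquitin-conjugating enzyme genes ubc-7 and ubc-6 had signals of 133 and 117, and cup-2, which encodes a derlin, and marc-6, which encodes a membrane ubiquitin ligase, had 32.9 and 29.9. The cup-2 peak was nearer to tag-353, whose start was 261 bp away, and the ubc-6 peak was about as near to aka-1, at 324 bp. The core ligase genes sel-1 and sel-11 had no optimal peak. Of 3 ubiquitin shuttle genes, 2 had one: ubql-1 with 152 and rad-23 with 58.5, the latter 135 bp from the start of the proteasome gene rpn-12.

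The CUL-2 LRR-1 ligase marks the replicative helicase for CDC-48. Of its 5 genes, 4 had an optimal peak. In the top list of replicate 1 there were 3, against 22.4% of all genes, and in that of replicate 2 there were 4, against 22.1%. The mean of the replicates was 70% ± 14.1 (SD, n = 2). The signals were 216 at elc-1, where the peak was 317 bp from Y82E9BR.3, 119 at elb-1, 64.5 at rbx-1 and 34.5 at cul-2, the gene that was outside the top list of replicate 1. The substrate receptor gene lrr-1 had no optimal peak. All shares in these lists rest on at most 9 genes each and are set beside the 22.5% of all protein-coding genes only as a description.

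**Figure D4:**
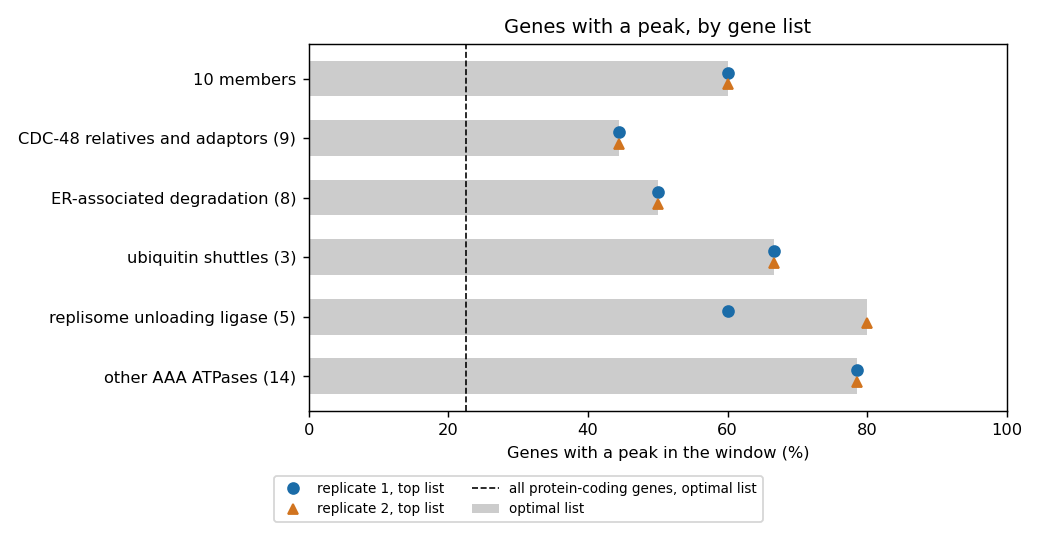
Percent of genes with a peak in the window, for the 10 members and each list of other genes (number of genes in parentheses); bars are the optimal list, circles and triangles the top lists of replicates 1 and 2, and the dashed line is the 22.5% of all protein-coding genes. The members stand at 60%, and the lists range from 44.4% to 80%.

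The plot of shares by list shows the members at 60%, inside the range of the other lists. All of these shares were above that of all genes. Each rests on few genes, and members and lists alike were chosen with earlier results of these data known.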

How the data were processed

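The deposited narrowPeak lists on ce11 were used: per the deposited read-me files, 1 per replicate, 1 on pooled replicates and 1 optimal list, both replicates being called against the same control alignment. The signal and the −log10 q-value of each peak are the values the authors deposited. Not given in the sources are the aligner, caller, IDR threshold and read length. The ce10 lists were not used here. Peaks were ranked by signal alone, and top lists kept the 3913 strongest peaks of a replicate. Ranking by q-value and then signal was used only as an alternative. A peak counted when it overlapped the window by at least 1 bp. Genes came from Ensembl release 115 and sequence from the RefSeq genome, both WBcel235. Proteins were translated from annotated coding exons, in place of the RefSeq proteins first planned, and aligned globally with gap penalties of 11 and 1. A repeated word is one of 36 bp found more than once, on either strand, in the nuclear genome. Python 3.11.15, pandas 2.3.3, numpy 2.4.6, Biopython 1.88 and matplotlib 3.10.9 were used, and counting and ranking were tested on simulated data.

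The members and lists were chosen with earlier results of these data known, so no test was made. The text names all members, genes sharing a member's optimal peak within 1000 bp, up to 4 genes of each list by signal, and the 5 genes most like cdc-48.1 with ties. Genes next to members, genes nearest to a named peak, and the list genes without a peak were named after their values were seen. So were mei-1, figl-1 and prx-1. The alternatives were other windows, lists, overlaps, peak midpoints, the nearest gene start and each replicate alone.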

Additional observations from a re-analysis of the deposited data

How the results depend on the processing

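The count of 6 members with an optimal peak ranged from 5 to 7 over 10 alternatives. With 500 bp upstream it was 5, which loses ubxn-3. It was also 5 when a peak was given only to the nearest gene start, which loses ubxn-1 to tipn-1. For these settings no share of all genes is given, so neither count can be set beside the 22.5%. The full pooled list gave 7, where 51.4% of all protein-coding genes had a peak. The share of peaks weaker than that of cdc-48.1 was 99.9764% in the pooled list and 99.8978% in the shorter optimal list, and 99.9709% to 99.9933% with either replicate left out. Its summit distance of -172 bp became -170.5 bp by the peak midpoint and was -173 to -172 bp with either replicate left out. The strongest cdc-48.2 peak ranked 5976, 5977 by q-value and 4796 in replicate 1 alone. Without replicate 1 it had no peak, so its rank and the ratio to cdc-48.1 had no value, and the ratio had none with 500 bp upstream or in the optimal list. No paired analysis was possible because there was 1 group. Depth is unknown, so it is not known which weak peaks it limits, and both replicates share a control.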

Other observations

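Other AAA ATPases, relatives of CDC-48 with different substrates, were counted in the same windows. Of 14 such genes, 11 had an optimal peak, beside 22.5% of all protein-coding genes. In the top list of replicate 1 there were 11, against 22.4% of all genes, and in that of replicate 2 also 11, against 22.1%. These were not the same genes throughout: 10 were in both top lists, ymel-1 was in that of replicate 1 alone, at rank 3747, and mei-1 in that of replicate 2 alone. The strongest were at atad-3, a mitochondrial inner membrane ATPase, with a signal of 180 at rank 198, at vps-4, which disassembles ESCRT-III polymers, with 164 at rank 252, at the microtubule-severing spas-1 with 112, and at nsf-1, which takes apart SNARE complexes, with 102. The window of vps-4 held 4 optimal peaks. The weakest was mei-1, the meiotic katanin subunit, with 27.7 at rank 3905 of 3913, a peak that lay nearer to npp-2, at 421 bp. Its best rank was 6757 in replicate 1 and 2635 in replicate 2. The peaks of figl-1 and prx-1 were also nearer to another gene, 149 bp from mcm-7 and 976 bp from mgrn-1. The genes pch-2, ymel-1 and prx-6 had no optimal peak. The median signal of the 11 was 86.9, below the 108 of the 6 CDC-48 genes and above the 63.7 of all genes with an optimal peak.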
